A study of Arabidopsis thaliana with 4 samples.

Results

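A set of 10 genes of aliphatic glucosinolate synthesis, 10 of the 32678 loci in the count table, was described in 4 libraries from rosette cores of Arabidopsis thaliana. They were chosen by locus identifier as the regulators MYB28 and MYB29, the chain-elongation genes BCAT4, BAT5, MAM1 and MAM3, the cytochrome P450 genes CYP79F1, CYP79F2 and CYP83A1, and the sulfotransferase gene SOT18. All 4 libraries came from untreated plants of the accession Col-0, 31 days old. Plants grew on soil in 16-h days at 22 °C and 100 µE per m2 and s, after 1 to 2 days of cold at 4 °C as seeds, and the rosette centre, 1.5 to 2 cm across, was taken for RNA. The libraries (core 1 to core 4) form 1 group with no second condition, so the data give levels and the spread between cores. No label says whether a core is 1 plant, so that spread may be technical. The genes were chosen with values of these libraries in view. Their levels and their spread are therefore given as descriptions, and nothing is inferred from them.

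Glucosinolates are sulfur-containing defence compounds of the cabbage order, released as toxic isothiocyanates and related products when tissue damage brings them together with myrosinase enzymes. The aliphatic class is built from methionine. Its side chain is first lengthened in repeated cycles of deamination, condensation with acetyl-CoA, isomerisation and oxidative decarboxylation, the chain-extended amino acid is then converted to an aldoxime and on to the core structure by P450 enzymes, conjugating enzymes and a sulfotransferase, and the side chain is modified last. MYB28 and MYB29 are the main transcriptional activators of these genes in Arabidopsis. The indole class, made from tryptophan, has MYB factors and first P450 enzymes of its own.

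Library totals ran from 5639486 to 7692788 counts. Levels are given as CPM (counts scaled to a common library size by TMM, on nuclear loci with 1 transcript model) and as CPM per kb of exon where genes are compared. The detection floor, set at 3 counts, stood at 0.418 CPM in core 1 and at 0.562 CPM in core 4 and covers counting error only. The table has 1 row per transcript model, and 37.5% of the loci with several models had no count in any library, against 13.8% of nuclear loci with 1 model. Of the genes, 7 have 1 model, and MYB28, BAT5 and CYP79F1 have 2. For these 3 the models were summed, and their levels were not compared with those of other genes. Of the 7, CYP79F2 did not reach the minimum count in every library, which left 6 for the tests of spread. The tissue label was checked with marker lists: 10 photosynthesis genes with 1 model summed to between 33650 and 50209 CPM, the meristem gene STM had 97.0 to 315 CPM, and 5 of 8 root genes stayed below 1 CPM in every core, with the root-hair gene EXPA7 at no counts. The stem-cell marker WUS had at most 0.139 CPM.

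Of the 10 genes, 8 were higher in both core 1 and core 2 than in either core 3 or core 4, and 9 of the 10 had their lowest level in core 3, MYB28 by a margin of 37.6 against 37.7 CPM. Over all 12771 genes tested for spread, 28.0% had the first order and 26.8% were lowest in core 3. Those 12771 hold only genes with 1 model that passed the filter, and so not MYB28, BAT5, CYP79F1 or CYP79F2. Of the 6 genes among them, 5 had the first order. The exceptions to the first order were MYB28, which was nearly level, and MAM3, which was low in every core. Summed over the 7 genes with 1 model, the level was 1798 CPM in core 1, 1886 CPM in core 2, 711 CPM in core 3 and 1081 CPM in core 4. The highest core was thus 2.65-fold the lowest.

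**Figure D1:**
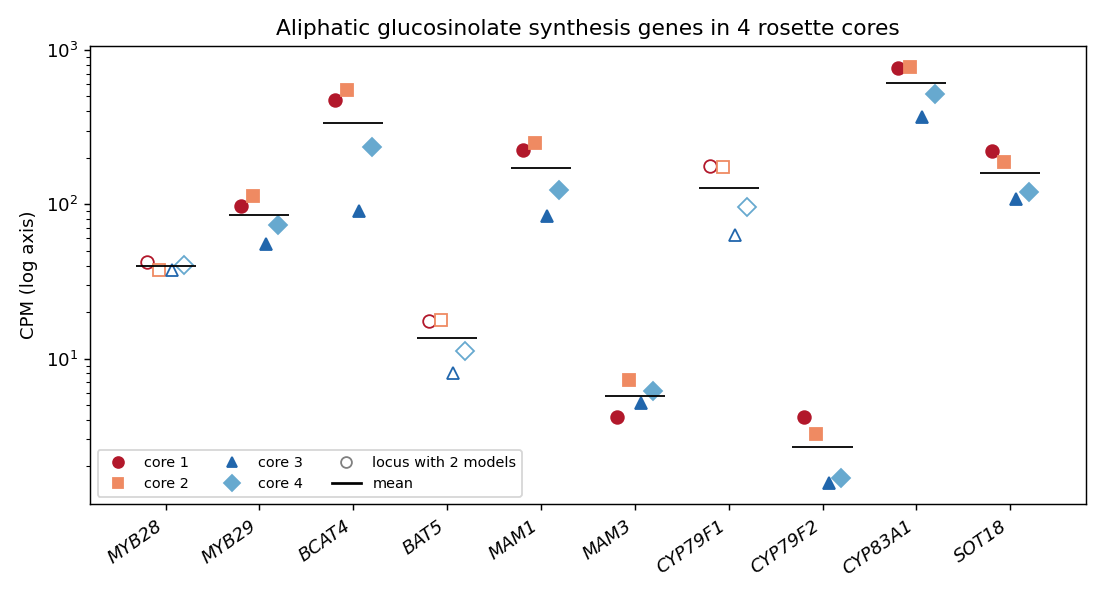
Level of each gene in each core, in CPM on a log axis, in pathway order from the regulators to the sulfotransferase. Points are single libraries, horizontal lines are means over the 4 cores, and open points mark loci with 2 transcript models; core 3 is the lowest point for BCAT4 (91.0 CPM against 547 CPM in core 2), while the MYB28 points lie together.

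The regulators differed in how far their levels varied. MYB28 (AT5G61420, TAIR10.1, chromosome 5, 24689069 to 24691187, minus strand) had 42.5, 37.7, 37.6 and 40.3 CPM in cores 1 to 4, so its highest core was 1.13-fold its lowest. All 1017 of its counts fell on 1 of its 2 models. MYB29 (AT5G07690, chromosome 5, 2446669 to 2448584, plus strand) had 97.5, 113, 55.1 and 73.3 CPM. Its values in cores 1 and 2 lay above those in cores 3 and 4, and the highest was 2.05-fold the lowest. MYB76, another activator of the same small family, starts 1.44 kb past the end of MYB29 and was low, with 3.07, 2.22, 1.71 and 2.06 CPM. No 50-base window of the MYB29 exons occurred in MYB28 or MYB76.

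Chain elongation opens with BCAT4, an aminotransferase that deaminates methionine, and this gene had the widest spread of the 10. BCAT4 (AT3G19710, chromosome 3, 6846969 to 6849582, minus strand) had 476, 547, 91.0 and 236 CPM. Core 3 lay far below the other cores, with the highest core 6.01-fold the lowest, and 2.32-fold without core 3. Of its exon length, 21.2% overlaps exons of the opposite-strand gene AT3G19700, which had 151, 211, 33.8 and 67.3 CPM, in the same order of cores. The libraries are strand-specific by kit, but the strand setting of the counting is not given in the sources used here, and the part of the neighbour's reads in the BCAT4 values was not tested. BAT5 (AT4G12030, chromosome 4, 7210807 to 7213376, plus strand), the transporter that carries the keto acids into the plastid, had 17.6, 17.8, 8.07 and 11.2 CPM, with 357 of its 358 counts on 1 of its 2 models. Its order of cores was again 2, 1, 4, 3 from high to low.

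The condensing enzymes of the plastid are encoded by 2 neighbouring genes, of which one was expressed at a far higher level. MAM1 (AT5G23010, chromosome 5, 7703041 to 7706973, plus strand), which acts in the first elongation cycles, had 225, 250, 83.8 and 124 CPM, and the highest core was 2.98-fold the lowest. MAM3 (AT5G23020, chromosome 5, 7718118 to 7721866, plus strand), whose enzyme also makes the long-chain products, had 4.18, 7.25, 5.12 and 6.19 CPM from 145 counts in all. Its lowest core was core 1, and it was the 1 gene of the 6 tested that was not called beyond counting noise. Per kb, MAM1 exceeded MAM3 in each of the 4 cores, by a geometric mean of 24.6-fold and by 14.4-fold to 47.2-fold in single cores. The log2 ratio of MAM3 over MAM1 was -4.62 ± 0.776 (SD, n = 4), and an exact sign-flip permutation test over the 4 libraries, two-sided, gave p = 0.125, the smallest value that 4 libraries allow. The genes lie 11.1 kb apart, and no 50-base window of the exons of one occurred in the other.

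Of the other elongation genes tested, IPMI1, IPMI2 and IIL1 were also higher in cores 1 and 2 than in cores 3 and 4, and IPMDH3 was not. IPMI1 and IPMI2, small subunits of the isomerase, had 195, 156, 67.8 and 108 CPM and 392, 363, 86.8 and 235 CPM. IIL1, the large subunit, which also serves leucine synthesis, varied less, with 423, 395, 338 and 374 CPM. IPMDH3, a dehydrogenase gene of leucine synthesis, had 90.4, 79.6, 100.0 and 123 CPM and was highest in core 4. BCAT3 and IPMDH1 have several models and were not ranked here.

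Core synthesis starts with CYP79F1 and CYP79F2, neighbouring P450 genes whose enzymes form the aldoximes, CYP79F1 from short-chain and long-chain substrates and CYP79F2 from long-chain ones. CYP79F1 (AT1G16410, chromosome 1, 5608682 to 5612064, plus strand) had 177, 175, 63.0 and 95.6 CPM. Of its 3370 counts 3364 fell on 1 of its 2 models, and core 1 was 2.81-fold core 3. CYP79F2 (AT1G16400, chromosome 1, 5605044 to 5607498, plus strand) had 4.18, 3.25, 1.55 and 1.69 CPM from 71 counts. Both genes were higher in cores 1 and 2 than in cores 3 and 4. They lie 1.18 kb apart, and 2.74% of the 50-base windows of CYP79F2 occurred exactly in CYP79F1, so the division of reads between them is uncertain for a small part of the sequence. CYP83A1 (AT4G13770, chromosome 4, 7990429 to 7992429, minus strand), which oxidises the aldoximes, had the highest mean level per kb of the 7 genes with 1 model. Its values were 769, 778, 366 and 520 CPM, with the highest core 2.12-fold the lowest.

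Promoter sequence was read for all 10 genes because 8 of them had the same order of cores. The 300 bases before the annotated start are shown for BCAT4, the gene of widest spread, and for the 3 genes of the 10 that hold an AC element. AC elements (ACCNANC) are bound by many plant R2R3 MYB proteins, and the G-box (CACGTG) by basic helix-loop-helix proteins such as MYC2. Capitals mark matches to these motifs on either strand. Sequences are from RefSeq, TAIR10.1, written 5′ to 3′ on the strand of the gene.
BCAT4 (chr3:6849583-6849882, minus strand): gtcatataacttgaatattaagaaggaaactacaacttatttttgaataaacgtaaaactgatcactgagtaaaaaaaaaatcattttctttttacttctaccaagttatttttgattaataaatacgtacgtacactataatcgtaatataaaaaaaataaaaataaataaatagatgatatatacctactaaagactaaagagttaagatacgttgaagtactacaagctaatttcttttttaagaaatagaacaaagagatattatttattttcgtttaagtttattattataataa
BAT5 (chr4:7210507-7210806, plus strand): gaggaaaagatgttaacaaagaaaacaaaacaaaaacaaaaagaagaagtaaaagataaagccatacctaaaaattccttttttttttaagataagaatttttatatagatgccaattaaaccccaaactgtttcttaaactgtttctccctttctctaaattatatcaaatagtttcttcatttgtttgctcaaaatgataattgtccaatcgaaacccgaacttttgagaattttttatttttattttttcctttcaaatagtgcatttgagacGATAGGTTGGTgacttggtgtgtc
CYP79F2 (chr1:5604744-5605043, plus strand): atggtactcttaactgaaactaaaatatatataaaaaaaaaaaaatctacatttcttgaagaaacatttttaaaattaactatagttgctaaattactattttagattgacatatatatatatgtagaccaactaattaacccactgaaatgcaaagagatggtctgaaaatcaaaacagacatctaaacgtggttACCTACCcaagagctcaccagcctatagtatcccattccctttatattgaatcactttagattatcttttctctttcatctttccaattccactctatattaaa
CYP83A1 (chr4:7992430-7992729, minus strand): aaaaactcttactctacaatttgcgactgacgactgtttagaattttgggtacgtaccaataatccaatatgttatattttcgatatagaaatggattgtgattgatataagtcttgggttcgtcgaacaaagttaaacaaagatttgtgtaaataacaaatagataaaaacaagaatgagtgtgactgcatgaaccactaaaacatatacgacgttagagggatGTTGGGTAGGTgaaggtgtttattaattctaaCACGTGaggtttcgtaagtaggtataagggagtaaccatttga

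The AC element was found in 3 of the 10 promoters, against 31.9% of the 27443 promoters of nuclear protein-coding genes, and in 9 of the 21 promoters of other genes of the pathway. In BAT5 and in CYP83A1 a pair of matches overlaps. Read in the direction of the motif, the match at -104 in CYP79F2 is gttACCTACCcaa and the match at -71 in CYP83A1 is ttcACCTACCcaa, so both hold the same 10 bases ACCTACCcaa. How often these 10 bases occur over all promoters was not counted. A G-box was found in CYP83A1 alone of the 10, at -43, against 7.09% of all promoters. The related E-box CACATG was found in none of the 10 and in 13.1% of all promoters. BCAT4, MAM1 and CYP79F1, which had wide spreads between cores, hold no match to these 3 motifs in this window. The letters TATAAA on the gene's strand were found in 5 of the 10, against 37% of all promoters. Their first bases lay at scattered distances, from -271 in CYP79F2 to -12 in SOT18. The window and motifs were chosen after values were seen. A window from 250 bases before to 50 after the start, tried first, held the AC element in 5 of the 10 (32.6% of all promoters), the G-box in 2 (7.68%), CACATG in 1 (12.9%) and TATAAA in 6 (37.2%). These are matches of letters and not binding sites.

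Between the P450 steps and sulfation, the 5 genes tested were all higher in cores 1 and 2 than in cores 3 and 4. The same held for 28.0% of all 12771 genes tested. GSTU20, a glutathione transferase gene, had 1081, 1169, 420 and 655 CPM, and at 725 CPM per kb it was the most abundant pathway gene measured here. GSTF11 had 72.7, 76.6, 26.7 and 33.0 CPM, but its exons lie wholly over those of an opposite-strand gene. GGP1, the peptidase gene that removes glutamate from the conjugate, had 496, 386, 309 and 366 CPM. UGT74C1 and UGT74B1, glucosyltransferase genes, had 270, 257, 160 and 196 CPM and 106, 105, 56.2 and 47.6 CPM. SUR1, the C-S lyase gene, has several models and was not ranked here.

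SOT18, which sulfates the desulfo-glucosinolate in the last step of the core pathway, was higher in cores 1 and 2 than in cores 3 and 4. It (AT1G74090, chromosome 1, 27862814 to 27864193, plus strand) had 222, 188.5, 108 and 120 CPM, and the highest core was 2.05-fold the lowest. SOT17, whose enzyme has the same aliphatic substrates, had 61.1, 55.2, 27.6 and 24.7 CPM. The log2 ratio of SOT18 over SOT17 per kb was 2.09 ± 0.221 (SD, n = 4), with SOT18 higher in 4 of 4 cores by 3.71-fold to 5.27-fold. SOT16, which serves the indole class and ends 0.151 kb from SOT18 on the other strand, had 55.5, 49.1, 65.2 and 42.6 CPM. Here the log2 ratio of SOT18 over SOT16 was 1.96 and 1.91 in cores 1 and 2 but 0.69 and 1.47 in cores 3 and 4. CYP83A1 and its indole counterpart CYP83B1 had log2 ratios per kb of 1.35, 1.49, 0.25 and 1.03 in cores 1 to 4. For each of these ratios the exact sign-flip permutation test, two-sided, also gave p = 0.125.

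Cores 1 and 2 lay above cores 3 and 4 for all 5 side-chain modification genes tested and for 28.0% of all genes tested. The flavin monooxygenase genes FMOGS-OX1, FMOGS-OX2, FMOGS-OX3 and FMOGS-OX4, which oxidise the side-chain sulfur, had highest cores 3.36-fold, 1.87-fold, 2.58-fold and 6.15-fold their lowest. FMOGS-OX4 had 59.3, 78.3, 12.7 and 34.7 CPM. GSL-OH, a dioxygenase gene that hydroxylates the side chain, had 145, 150.2, 39.1 and 91.1 CPM. BZO1, which supplies benzoyl groups for seed glucosinolates, was low, with 0.740 to 3.21 CPM.

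Set per kb of exon, the 7 genes with 1 model formed steps of very different height. CYP83A1 stood first with 319 ± 105 CPM per kb (SD, n = 4), followed by BCAT4 with 232.5 ± 145.7, SOT18 with 116 ± 39.5, MAM1 with 83.2 ± 38.7 and MYB29 with 48.9 ± 14.8. MAM3 with 3.11 ± 0.725 and CYP79F2 with 1.32 ± 0.630 CPM per kb were last. The order was the same in cores 1, 2 and 4. In core 3 BCAT4 (62.7 CPM per kb) stood behind SOT18 (78.2), so the rank of these neighbours was not the same in every core. Their difference was not tested. The median over the 7 was 83.2 CPM per kb, against 4.99 for the 20912 nuclear protein-coding loci with 1 model. These loci include silent ones, and the median over the genes tested for spread was 16.9 CPM per kb. With the models of all 10 genes summed it was 41.6 CPM per kb.

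Variation between cores exceeded counting noise for 5 of the 6 genes tested, where 64.0% of all 12771 genes tested were also called (chi-square test of counts given library sizes, Benjamini-Hochberg adjusted over all genes). The median SD of log2 CPM over the 6 was 0.51, against 0.241 over all genes tested, and single values ran from 0.34 for MAM3 to 1.18 for BCAT4. In 5 of the 6 the highest core was at least 2-fold the lowest, against 15.7% of all genes. Core 3 carried much of this. Without it, BCAT4 and MAM1 alone reached 2-fold, against 8.23% of all genes, and MYB29, CYP83A1 and SOT18 had highest cores 1.54-fold, 1.50-fold and 1.84-fold their lowest. By edgeR's quasi-likelihood fit, which asks for more spread than genes of the same level have, none of the 6 and 0% of all genes passed after Benjamini-Hochberg adjustment. At an unadjusted p below 0.05 the same test held 2 of the 6, BCAT4 and MAM1, and 5.18% of all genes. With no filter on low counts these same 2 genes passed after adjustment, among 431 of 22869 genes.

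**Figure D2:**
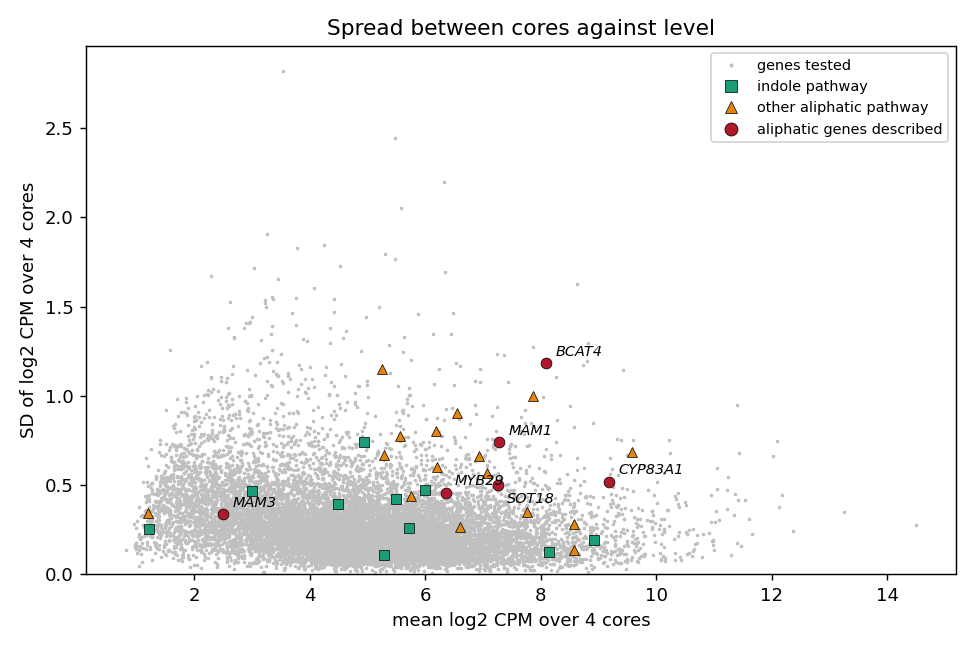
SD of log2 CPM over the 4 cores against mean log2 CPM, for the 12771 nuclear genes tested (grey) and for the pathway genes among them (coloured). BCAT4 at an SD of 1.18 lies near the upper edge of the cloud at its level. MAM1 at 0.74 lies in the upper part of the cloud, below other genes of its level, and MAM3 at 0.34 lies within it.

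Cores 1 and 2 both lay above cores 3 and 4 for 5 of the 6 genes tested, MAM3 being the exception, and for 28.0% of all genes tested. The reverse, cores 3 and 4 both above cores 1 and 2, held for none of the 6 and for 28.1% of all genes tested. The other aliphatic list holds 21 genes, of which 17 have 1 model and 16 were tested. Of these 16, 15 had this order, with IPMDH3 the exception, and 15 varied beyond counting noise, with MYB76 the exception. Their median SD of log2 CPM was 0.633, and 10 had a highest core at least 2-fold the lowest, or 5 without core 3. In the indole list 4 of 10 tested genes had this order, with a median SD of 0.327. The 14 indole genes with 1 model summed to 1114, 1088, 1051 and 924 CPM in cores 1 to 4. This sum also had cores 1 and 2 above cores 3 and 4, over a range of 1.21-fold. GSTF10, the most abundant gene of the list, gave 522, 558, 416.5 and 448.5 CPM of it and had that order. CYP83B1, the next most abundant, gave 301, 275, 306 and 254 CPM and did not. GSTF9, a gene of this list with 2 models that was not tested, had 205, 204.5, 74.5 and 86.6 CPM. MYB34 and MYB51, regulators of the indole class, and CYP79B2 and CYP79B3, its first enzymes, were each highest in core 3. The share of all genes highest in core 3 was not computed. There CYP79B3 had 98.1 CPM, against 48.2 to 69.0 CPM in the other cores. MYB122, a further MYB gene of the list, was too low to be tested, with 0.279, 0.592, 0 and 0 CPM in cores 1 to 4. CYP81F4, an indole-modifying P450 gene with 88.2% of its exons under an opposite-strand gene, had 52.4, 39.2, 16.0 and 26.1 CPM and thus the aliphatic order. Whether the aliphatic and indole lists differ was not tested, because 1 group of 4 libraries gives no contrast.

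**Figure D3:**
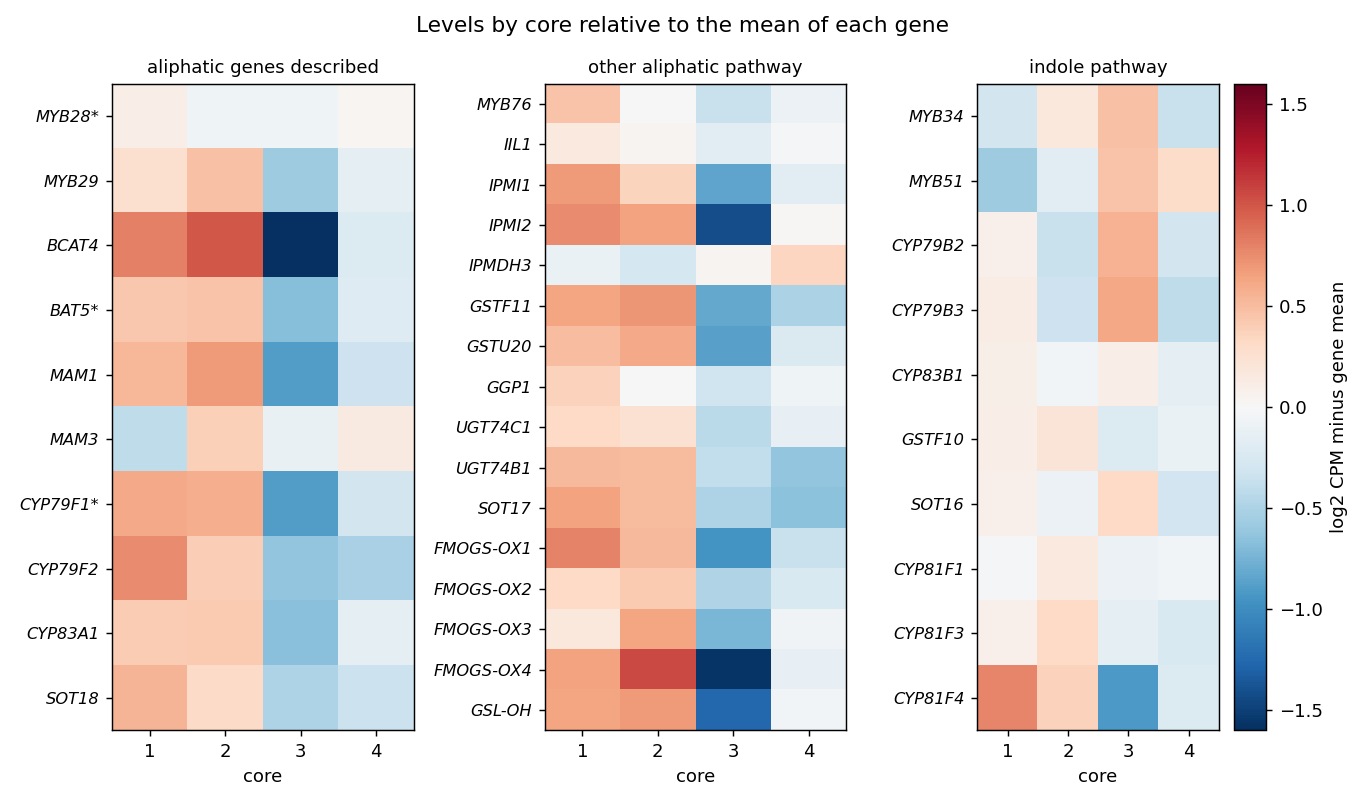
Level of each gene in each core relative to its own mean, on the log2 CPM scale, for the 10 aliphatic genes, the other aliphatic pathway genes tested and the indole pathway genes tested (rows); asterisks mark loci with 2 models. BCAT4, IPMI2 and FMOGS-OX4 are darkest blue in core 3, IPMDH3 is not blue there, and MYB34, MYB51, CYP79B2 and CYP79B3 are red there.

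The regulators and transporters tested had a median SD of log2 CPM of 0.214, against 0.241 over all genes tested. MYC3 and MYC4, which act with the MYB factors, had 58.3 to 99.1 and 60.7 to 87.1 CPM and were lowest in core 4. MYC2 had 60.7 to 101 CPM, with 98.5% of its exons under an opposite-strand gene. The glucosinolate transporter genes GTR1 and GTR2 had 185 to 204 and 270 to 323 CPM, and GTR1 was not called beyond counting noise. None of the 5 regulators and transporters tested had a highest core 2-fold its lowest, against 15.7% of all genes tested. Cores 1 and 2 lay above cores 3 and 4 for 2 of the 5, MYC2 and GTR1, and for 28.0% of all genes tested.

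Profiles over the cores were compared by the root mean square difference of centred log2 CPM from the mean profile of the 6 genes, which was 0.35, 0.54, -0.72 and -0.17 in cores 1 to 4. Among the 6, CYP83A1 lay nearest to that profile (0.0712) and BCAT4 farthest (0.538), since it varied more. Of 10267 other genes with a mean of at least 10 CPM, the 10 nearest were AT1G03760, AT1G62500, STY2, AT1G44760, AT1G31040, PLP6, AT5G40490, AT5G03230, AT3G54390 and AT2G43200, at 0.0183 to 0.0582. AT1G62500, the most abundant of them, had 718, 864.5, 353 and 538.5 CPM. No glucosinolate gene of the lists was among the nearest 50. The nearest pathway genes were GSTU20 at rank 74, FMOGS-OX3 at rank 89 and FMOGS-OX2 at rank 142, and 8 of the 15 other aliphatic genes ranked stood among the nearest 1026, as did 1 of 8 indole genes. The profile spans 4 libraries and many genes share it.

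Other measures moved with the same cores. Organelle loci took 2.94% and 3.09% of the counts on loci with 1 model in cores 1 and 2, and 5.15% and 3.57% in cores 3 and 4. The 7 meristem genes with 1 model summed to 435 and 702 CPM in cores 1 and 2 and to 307 and 352 CPM in cores 3 and 4, with WUS at 0 in 3 of the 4. Most of these sums came from STM and KNAT1, the 2 of the 4 tested meristem genes with that order, while CLV1 was highest in core 3 (105 CPM) and CUC2 was higher in cores 3 and 4 than in cores 1 and 2. The 8 root genes summed to 10.9 and 15.2 CPM in cores 1 and 2 and to 1.71 and 3.56 CPM in cores 3 and 4, and the nitrate transporter gene NRT2.1 gave 8.23, 12.6, 0.155 and 1.87 CPM of these sums in cores 1 to 4, with EXPA7 at 0. The part of tissue make-up and of organelle RNA in the spread of the aliphatic genes was not tested, and in whole tissue fewer cells of a type cannot be told apart from less RNA per cell. The photosynthesis list summed to 47687, 33650, 50209 and 39728 CPM and the phloem and vascular list to 301, 374, 399 and 291 CPM, and neither had the order of the aliphatic genes. Raw library totals did not have it, since core 3 held more counts (6998463) than core 2 (6821456), but the TMM-scaled library sizes did, with 7170816, 6758687, 6441084 and 5335237 in cores 1 to 4. The part of library size in the spread was not tested.

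**Figure D4:**
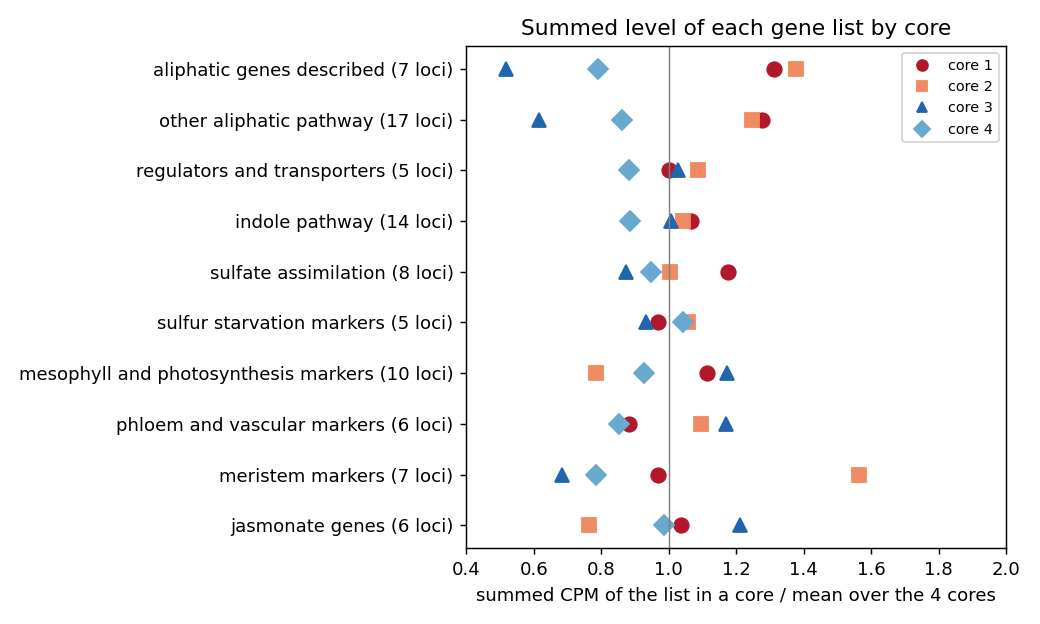
Summed CPM of each gene list other than the root list in each core, divided by the mean over the 4 cores, for loci with 1 model (numbers in brackets). Cores 1 and 2 lie above cores 3 and 4 for both aliphatic lists, for the meristem list and, over narrower ranges, for the indole (1.21-fold) and sulfate assimilation (1.34-fold) lists, but not for the photosynthesis and phloem lists. Of the indole sum, GSTF10 alone gave 522, 558, 416.5 and 448.5 CPM in cores 1 to 4.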

How the data were processed

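RNA of 4 rosette cores was depleted of ribosomal RNA, made into strand-specific Ion Torrent libraries and sequenced on an Ion Proton, with Torrent Suite 4.0.2, per the labels' protocols. HTSeq and TAIR10 were used, per the submitters' processing notes. The sources used here do not name the aligner or the counting settings. Values as deposited are raw counts per TAIR10 transcript model, not normalized by the authors.

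Models were summed per locus. CPM rest on the 26516 nuclear loci with 1 model after TMM scaling (edgeR 4.0.16, R 4.3.3). The filter (minimum count 10 in all 4 libraries, scaled by depth) left 12771 genes. Spread was tested with a chi-square test of Poisson counts and with the quasi-likelihood F statistic of edgeR for a model with 1 mean, taking the prior degrees of freedom of ordinary genes (chosen after the gene-wise ones failed the check on simulated data), both adjusted by Benjamini-Hochberg at 0.05. Ratios used a prior count of 0.5. Size factors of DESeq2 1.42.0 were an alternative. Exon lengths, coordinates and promoters come from RefSeq TAIR10.1, in which 31912 loci matched. Other genes were named by list and by likeness of profile. The members, lists, motifs and order of cores were chosen with earlier results of these data known.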

Additional observations from a re-analysis of the deposited data

How the results depend on the processing

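With each core left out in turn, 5 to 6 of the 6 to 7 genes tested varied beyond counting noise. Of all genes tested, 49.8% to 58.2% did so. Cores 1 and 2 (or the one kept) lay above cores 3 and 4 (or the one kept) for 6 genes. An order of 3 cores is easier to meet than one of 4, and its share over all genes was not computed. The median SD of log2 CPM ran from 0.462 without core 3 to 0.622 without core 4. With no filter on low counts, 2 genes (BCAT4 and MAM1) passed the edgeR test of spread beyond genes of the same level, as did 431 of 22869 genes, against 0 of 12771 with the filter. With all loci and summed models the median level was 41.6 CPM per kb, because the 3 loci with 2 models enter. DESeq2 size factors, a prior count of 2, the fit without robust weights and ratios with no length term changed no direction and no call. The promoter window changed the motif counts, as given with the sequences. No paired analysis was possible because there is 1 group. Depth limits MAM3 (145 counts) and CYP79F2 (71 counts) most.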

Other observations

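Part of the sulfate assimilation list, which supplies glucosinolate synthesis, had the order of the aliphatic genes. Of 8 genes tested, 5 had cores 1 and 2 above cores 3 and 4, where 28.0% of all genes tested did. APK1 and APK2, kinases that make the sulfate donor of the sulfotransferases, had 155, 142, 73.8 and 71.2 CPM and 113, 108, 51.8 and 50.2 CPM in cores 1 to 4. APR1, a reductase gene, had 274, 263, 126.5 and 147 CPM, and SULTR2;1, a sulfate transporter gene, had 176, 169, 66.5 and 127.5 CPM. SIR, the sulfite reductase gene, had 862, 806.5, 955 and 946 CPM and did not have that order, nor did any of the 3 sulfur starvation markers tested, among them LSU2 with 7.53, 12.6, 6.83 and 7.68 CPM. Of 4 jasmonate genes tested, AOS (136, 136, 121 and 113 CPM) and JAZ5 (19.7, 12.7, 8.38 and 11.2 CPM) had cores 1 and 2 above cores 3 and 4. LOX2 was highest in core 3, with 213, 128, 349.5 and 253 CPM, and JAZ2 was highest in core 1, with 111, 76.2, 82.1 and 76.3 CPM.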
